A study of Mus musculus with 6 samples.

Results

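Oxidative phosphorylation couples the transfer of electrons along respiratory complexes I to IV of the inner mitochondrial membrane to the synthesis of ATP by complex V, the ATP synthase. Most subunits are encoded in the nucleus, and their genes tend to be expressed together in tissues with a high demand for energy. The nuclear respiratory factor Nrf1, GABP of the ETS family and the estrogen-related receptors, which work with the coactivators Ppargc1a and Ppargc1b, are known to drive many of them. In the continuously growing incisor the ameloblasts pass from the cervical loop through a secretory stage to a maturation stage, in which they transport ions into the hardening enamel and are rich in mitochondria.

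The genes described here are those whose symbol on the array begins with Nduf, Sdha to Sdhd, Uqcr, Cox4 to Cox8 or Atp5, together with Cycs and Cyc1 and without Cox6a2. This gave 90 of the 16593 genes on the array. They comprised 33 genes of complex I, 3 of complex II, 9 of complex III including cytochrome c1 (Cyc1), 11 of complex IV, 16 of complex V, the electron carrier cytochrome c (Cycs) and 6 tissue isoforms of complex IV. The prefixes also took in 9 assembly factors, which help to build complexes I and II and are not part of them, the supercomplex factor Cox7a2l and Ndufs5-ps, a symbol given to a pseudogene, whose probe may read transcripts of its parent gene. Ndufa4, named for complex I, was counted with complex IV, to which it belongs. The array held 0 probes for subunits encoded in mitochondrial DNA.

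RNA was taken from the dental tissue of lower incisors, dissected from C57BL/6 mice at 4 wk. Med1 KO mice carried floxed Med1 alleles (Med1 fl/fl) and Cre driven by the keratin 14 promoter, which acts in epithelium, and control littermates (CON) carried Med1 fl/fl without Cre, so that both groups shared the floxed alleles and cells of the KO tissue without this Cre kept Med1, a Mediator subunit that nuclear receptors contact. Each array held the pooled tissue of 3 mice, from the cervical loop (CL), from the secretory (Sec) and from the maturation (Mat) stage, with 1 array for each genotype and stage and 6 in all. The array reads the brightness of gene-specific probes, given below as background-corrected, quantile-normalized log2 signal. Since each genotype and stage has 1 array, no spread between animals can be given, and differences at a stage are descriptions without a test. In a dissected tissue, fewer cells of a type and less RNA per cell cannot be told apart.

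Between 46.1% and 49.8% of probes were detected on an array, at a detection p-value under 0.01. Med1 was lower in KO by 0.54 at CL, by 0.63 at Sec and by 0.49 at Mat on the log2 scale, and where its probe lies relative to the floxed exons is not given in the sources used here. All 5 ameloblast markers on the array, among them Amelx and Klk4, were detected on all 6 arrays. Markers of other cells moved with genotype and stage. The summed signal of 13 skeletal muscle genes, on a linear scale, was 8314, 12739 and 60405 in CON from CL to Mat and 9350, 69689 and 102012 in KO. On the KO arrays of Sec and Mat all 7 hair and epidermal genes were detected, and on each other array 2. The sum of the osteoclast genes Acp5, Ctsk and Mmp9 was 11046, 11068 and 19304 in CON and 10098, 6240 and 8318 in KO. The median difference between KO and CON over all detected genes was -0.01 at CL, -0.11 at Sec and -0.13 at Mat, against which the values below are to be read.

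The region upstream of the transcription start was taken from RefSeq (GRCm38.p6) for 75 of the 90 genes, which had 80 windows of 250 bases. The Nrf1 motif, GCGCA and GCGC with any base between them, was present on either strand in 15.0% of these windows, against 3.74% of all 32851 windows and 5.67% of those of genes on the array. The ETS letters CCGGAAG were present in 18.8%, against 6.91% and 9.48%. The letters AAGGTCA of the estrogen-related receptors were present in 5.0%, against 4.08% and 3.42%, and the Sp1 letters GGGCGG in 32 of 80 windows, against 32.7% and 45.8%. AAGATGGC of Yy1 was present in 1.25% against 1.56% and 1.55%, and TATAAA in 8.75% against 12.4% and 10.9%. The windows of the set had a median of 14 CpG dinucleotides, against 6 for all windows and 11 for genes on the array. The Nrf1 and ETS letters contain CG, and the part of CpG content in their shares was not tested. The windows of Ndufa5 overlap, and each held the Nrf1 letters. A match of letters is a description of the window and not a binding site. The windows of the tissue isoforms of complex IV held the Nrf1 letters in 0 of 4 and the ETS letters in 0 of 4.

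Windows are shown for 3 groups of genes to which the results return: the 3 genes that encode the same c subunit of ATP synthase and differed in their course along the incisor, a ubiquitous and a muscle isoform of the same complex IV subunit, and Sdhd, the subunit outside the tissue isoforms with the largest difference at Mat. Each window is written 5′ to 3′ on the strand of its gene and ends at the base before the start site, and capitals mark the searched letters. The coordinates are chr11:96075632-96075881 (minus strand) for Atp5g1, chr15:102671048-102671297 (minus) for Atp5g2, chr2:73911327-73911576 (minus) for Atp5g3, chr7:30183921-30184170 (plus) for Cox7a1, chr9:79759854-79760103 (minus) for Cox7a2 and chr9:50603850-50604099 (minus) for Sdhd.
Atp5g1: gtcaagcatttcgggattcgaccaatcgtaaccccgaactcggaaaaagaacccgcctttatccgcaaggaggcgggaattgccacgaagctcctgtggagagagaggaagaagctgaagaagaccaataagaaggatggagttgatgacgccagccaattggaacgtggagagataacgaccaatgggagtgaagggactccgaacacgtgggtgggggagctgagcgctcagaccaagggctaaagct
Atp5g2: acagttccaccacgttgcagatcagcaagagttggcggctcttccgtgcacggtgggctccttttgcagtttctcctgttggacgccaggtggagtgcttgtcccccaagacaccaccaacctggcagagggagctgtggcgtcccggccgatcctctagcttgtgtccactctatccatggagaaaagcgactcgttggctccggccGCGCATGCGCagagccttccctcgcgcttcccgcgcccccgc
Atp5g3: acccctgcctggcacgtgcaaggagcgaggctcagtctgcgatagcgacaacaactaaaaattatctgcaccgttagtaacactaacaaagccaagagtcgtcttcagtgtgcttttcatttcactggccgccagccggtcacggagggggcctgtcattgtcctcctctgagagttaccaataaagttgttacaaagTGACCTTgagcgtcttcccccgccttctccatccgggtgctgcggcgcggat
Cox7a1: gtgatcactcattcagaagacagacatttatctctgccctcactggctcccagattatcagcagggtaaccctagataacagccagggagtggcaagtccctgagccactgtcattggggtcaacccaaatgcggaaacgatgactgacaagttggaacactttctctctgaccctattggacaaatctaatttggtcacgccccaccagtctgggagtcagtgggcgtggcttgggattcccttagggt
Cox7a2: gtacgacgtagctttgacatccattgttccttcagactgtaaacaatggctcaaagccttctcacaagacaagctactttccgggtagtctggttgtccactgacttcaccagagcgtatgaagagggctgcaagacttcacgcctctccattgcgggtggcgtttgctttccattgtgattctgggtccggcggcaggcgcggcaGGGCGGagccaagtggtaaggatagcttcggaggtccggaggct
Sdhd: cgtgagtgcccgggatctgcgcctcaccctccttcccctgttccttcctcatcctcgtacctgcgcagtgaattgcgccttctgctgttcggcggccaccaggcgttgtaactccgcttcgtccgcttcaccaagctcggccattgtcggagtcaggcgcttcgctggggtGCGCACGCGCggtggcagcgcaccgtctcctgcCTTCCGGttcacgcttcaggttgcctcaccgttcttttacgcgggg
The window of Atp5g2 held the Nrf1 letters, that of Atp5g3 those of the estrogen-related receptors on the other strand, that of Cox7a2 those of Sp1 and that of Sdhd those of Nrf1 and, on the other strand, of the ETS family. The windows of Atp5g1 and Cox7a1 held none of the letters searched. The GC content was 53.6% for Atp5g1, 62.8% for Atp5g2, 54.0% for Atp5g3, 51.2% for Cox7a1, 54.8% for Cox7a2 and 64.4% for Sdhd, and Cox7a1 had 4 CpG dinucleotides where the others had between 14 and 27.

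Of the 90 genes, 82 were detected on all 6 arrays. Cycs was detected on 5, and Uqcrfs1, the Rieske iron-sulfur subunit of complex III, only in KO at Mat, with a log2 signal of 5.94 that lay below the detection floor of 6.19 in CON, so no fold is given. On no array were 6 genes detected, namely Ndufs1, a core subunit of complex I, Ndufab1, Uqcrq and Atp5k, which are expressed in most tissues, and the testis isoforms Cox7b2 and Cox8c. Sdha was not analysed here. Where 3 values of a genotype are given below, they are log2 signals in the order CL, Sec, Mat.

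In CON, most of these genes had a higher signal with each step along the incisor. Of 82 genes detected on all arrays, 62 (75.6%) were higher at Sec than at CL and higher again at Mat, against 27.0% of 7592 genes. In KO, 20 (24.4%) did so, against 17.5% of genes. The highest of the 6 arrays was CON at Mat for 53 of 82 (64.6%) and for 24.5% of all genes, and the lowest was CON at CL for 39 (47.6%) and for 14.7%. KO at Mat was the highest for 2 genes (2.44%, against 14.3% of all genes) and the lowest for 22 (26.8%, against 33.1%).

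**Figure D1:**
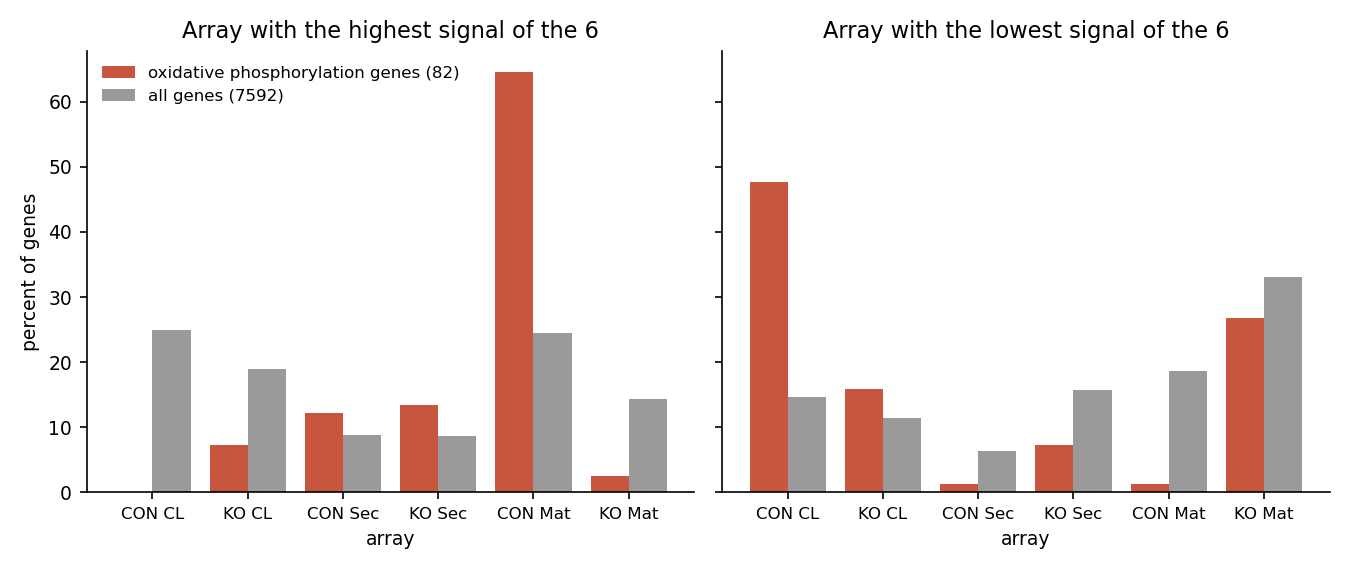
Share of genes, in percent, for which each of the 6 arrays had the highest (left) or the lowest (right) log2 signal, for the 82 oxidative phosphorylation genes and all 7592 genes detected on all arrays. The tallest bar is CON at Mat, which was the highest array for 64.6% of the oxidative phosphorylation genes.

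The 67 subunits of complexes I to V outside the tissue isoforms that were detected on all arrays had a median log2 signal, relative to CON at CL, of 0.29 in CON at Sec and 0.54 in CON at Mat. In KO the medians were 0.11 at CL, 0.29 at Sec and 0.22 at Mat. CON at Mat was thus the array that stood above the others. In CON, 55 of the 67 were higher at each step, and in KO 17.

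**Figure D2:**
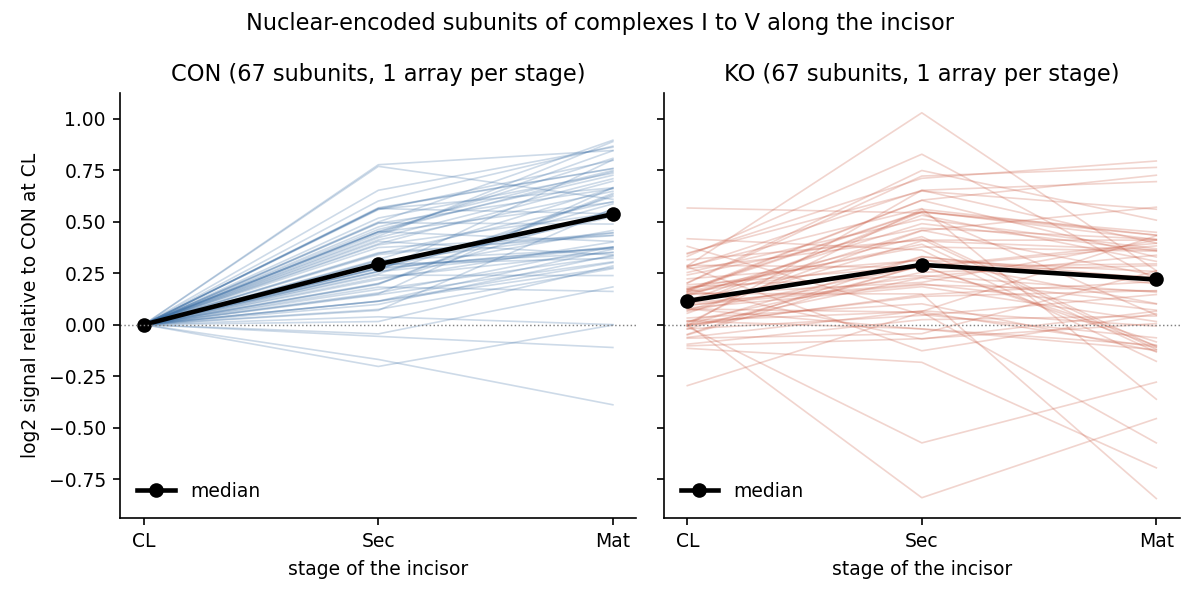
Log2 signal of each of 67 subunits of complexes I to V at CL, Sec and Mat, relative to its signal in CON at CL, in CON (left) and KO (right), with 1 array per point and the median in black. The median ends at 0.54 in CON and at 0.22 in KO.

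Between CL and Mat of CON, 33 of 83 genes (39.8%) were higher by at least 1.5-fold and detected on the brighter array, against 17.1% of 8944 genes, and 1 was lower, against 20.6%. The median difference was 0.46, a fold of 1.37, against -0.07 over all genes, and 73 genes lay above 0 (88.0%, against 45.0% of all genes). From CL to Sec of CON, 7 genes were higher (6.58% of all genes) and 0 lower (5.58%), with a median of 0.29. From Sec to Mat, 3 were higher (13.3% of all genes) and 1 lower (13.1%), with a median of 0.19. The direction of these 3 medians was the same with arrays scaled to a common median (0.49, 0.26 and 0.25) and in the deposited normalized values (0.44, 0.28 and 0.18).

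By complex, the median difference between CON at Mat and CON at CL was 0.40 over 31 genes of complex I, of which 12 were higher and 0 lower, and 0.54 over 3 of complex II, of which 1 was higher. It was 0.65 over 7 of complex III, with 4 higher, 0.49 over 11 of complex IV, with 5 higher, and 0.56 over 15 of complex V, with 7 higher. The 9 assembly factors had a median of 0.13, and none differed by 1.5-fold. The difference between subunits and assembly factors was not tested.

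Ndufa1, an accessory subunit of the membrane arm of complex I, had a log2 signal in CON of 13.10, 13.59 and 13.99 along the incisor, the largest difference from CL to Mat (0.90) outside the tissue isoforms. In KO it was 13.38, 14.12 and 13.36, so that KO was above CON at CL and Sec and below it at Mat. Ndufv1, the flavin subunit at which NADH is oxidized, was 12.86, 13.05 and 13.49 in CON and 12.85, 13.19 and 13.05 in KO. Sdhb, the iron-sulfur subunit of complex II, was 10.69, 11.08 and 11.23 in CON and 10.97, 10.56 and 10.74 in KO, so the KO tissue was lower at both later stages.

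Cyc1 had a log2 signal of 11.11, 11.76 and 11.97 in CON and 11.31, 11.83 and 11.87 in KO, so that KO differed from CON by 0.20, 0.07 and -0.10 at the 3 stages. Uqcrc1, a core subunit of complex III, was 12.31, 12.43 and 12.61 in CON and 12.21, 12.25 and 12.32 in KO. Cycs was 5.97, 6.45 and 6.57 in CON and 6.20, 6.15 and 6.02 in KO, and was not detected in CON at CL. In complex IV, Cox5a was 12.77, 13.16 and 13.46 in CON and 12.93, 13.31 and 13.21 in KO, and Cox5b 13.59, 13.87 and 14.18 in CON and 13.74, 13.80 and 14.00 in KO. Both were above CON in KO at CL and below it at Mat.

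In ATP synthase, Atp5b, the catalytic beta subunit, was 14.77, 14.87 and 15.11 in CON and 14.77, 14.91 and 14.93 in KO. Atp5a1, the alpha subunit that forms the catalytic head with it, was 9.89, 10.46 and 10.65 in CON and 10.04, 10.32 and 9.78 in KO. The alpha subunit was lower in KO at Mat by 0.87 (1.82-fold) and the beta subunit by 0.17, so the probes of these partners did not show the same size of difference.

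Genes whose signal was lower at Mat than at CL of CON were few. Cox4i2 was lower by 0.65, Sdhaf3, an assembly factor of complex II, by 0.42, Atp5g2 by 0.39, Cox7a2l by 0.25 and Ndufaf4, an assembly factor of complex I, by 0.15. Only Cox4i2 passed 1.5-fold.

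The same steps were compared in KO. From CL to Sec of KO, 5 of 83 genes were higher (14.5% of all genes) and 3 lower (19.3%), with a median of 0.14. From Sec to Mat, 1 of 84 was higher (7.54%), which was Cox8b, and 6 were lower (7.22%), with a median of -0.11. Below 0 lay 54 genes (64.3%, against 50.5% of all genes). From CL to Mat, 2 were higher (15.8%), the muscle isoforms Cox7a1 and Cox8b, and 7 lower (24.6%), with a median of 0.10 that turned to -0.06 with arrays scaled to a common median.

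The comparison of KO with CON asks how loss of Med1 from the epithelium altered expression at each stage. At CL, 1 of 83 genes was higher in KO (1.81% of all genes) and 0 were lower (2.0%). The median difference there was 0.11, with 62 genes above 0 (74.7%, against 46.7% of all genes). At Sec, 1 was higher (11.7% of all genes) and 2 were lower (15.2%), and the median was -0.01. There, 40 genes lay above 0 and 43 below (51.8%, against 58.4% of all genes). This split at Sec turned with the scaling, to 21 above and 62 below with arrays scaled to a common median (median -0.11) and to 54 above and 29 below relative to the median of all genes. At Mat, 1 of 84 was higher (12.6%) and 14 were lower (18.4%). Those 14 genes are 16.7% of the members, a share near that of all genes, so the count does not set these genes apart. What differed was the direction: 75 of 84 lay below 0 and 7 above, with a median of -0.31, a fold of 1.24, against a median of -0.13 and 58.4% of genes below 0 over the array. Among all genes with a mean log2 signal of 12 to 14, where 40 of the members lie, the median was -0.08, and that of the 40 members was -0.21.

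**Figure D3:**
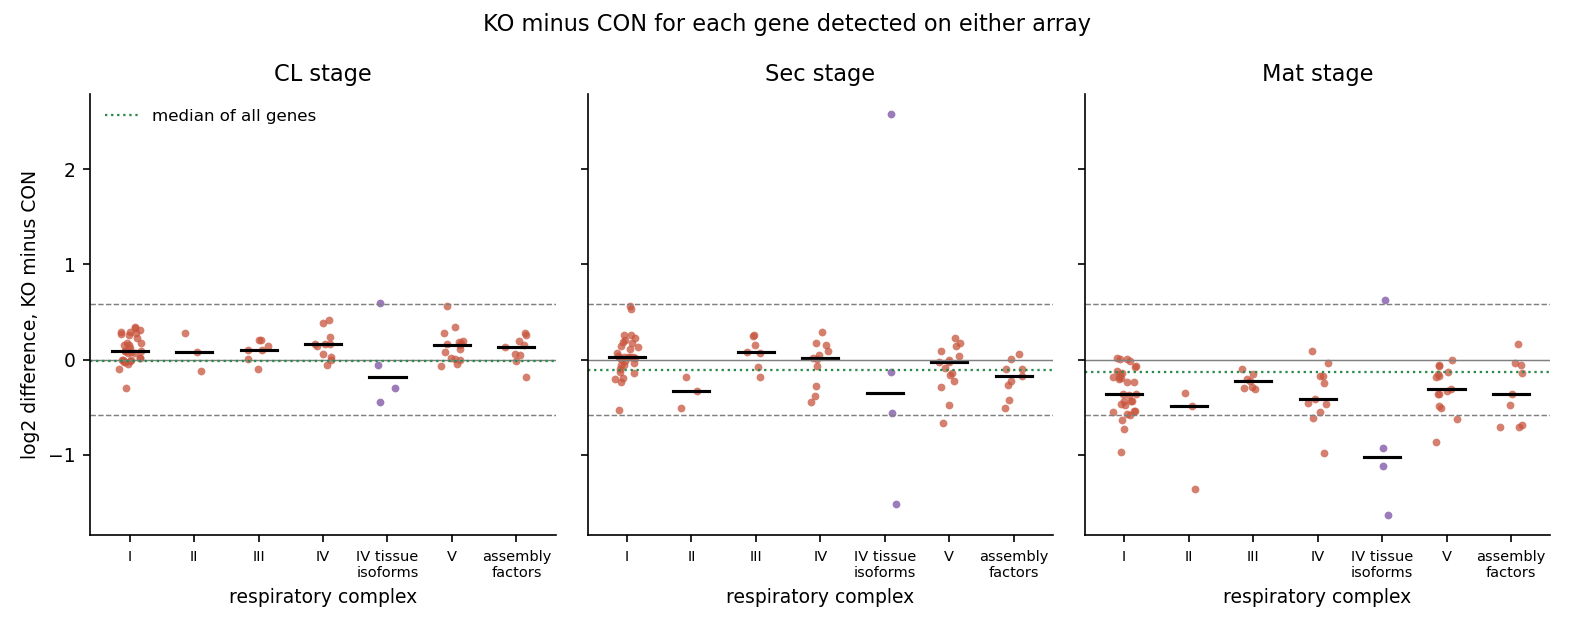
Log2 difference, KO minus CON, at CL, Sec and Mat for each gene detected on either array, by complex, with 1 array per genotype and stage. Black bars are medians, dashed lines mark 1.5-fold and the dotted line the median of all genes. At Mat the points of every complex lie mostly below 0, with a median of -0.31 over all 84 genes.

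The size of the difference at Mat depended on the scaling of the arrays, and its direction did not. With arrays brought to a common median, the median was -0.46, against -0.21 over all genes, and 28 genes were lower (21.6% of all genes) and 0 higher (11.7%). In the deposited normalized values it was -0.29, against -0.10 over all genes, with 9 lower (10% of all genes, 926 of 9218) and 0 higher (9.3%). Taken relative to the median of all genes it was -0.18, with 8 lower (13.4% of all genes), 1 higher (15.8%) and 64 of 84 below 0. Of single genes, the difference of Cox7a2 (-0.49), Cox7b (-0.52), Ndufaf5 (-0.56), Ndufb4 (-0.37), Sdhaf2 (-0.55) and Cox8b (0.58) at Mat and of Cox7a1 at CL (0.31) was under 1.5-fold in the deposited normalized values. The signal of Gapdh, a glycolytic enzyme often used as a reference, was also lower in KO at Mat, at 14.18 against 14.70 in CON.

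By complex, the median difference at Mat was -0.36 in complex I, with 3 of 31 genes lower, -0.49 in complex II, with 1 of 3 lower, -0.23 in complex III, with 0 of 8, -0.42 in complex IV, with 2 of 11, and -0.31 in complex V, with 2 of 15. The assembly factors had a median of -0.36, with 3 of 9 lower. The genes past 1.5-fold were mostly among those with a dim probe. Of 25 members with a mean log2 signal under 10, 10 were lower and the median was -0.56, against 21.5% and a median of -0.17 for all genes of that range, while of 40 members between 12 and 14, 2 were lower, against 9.6% of all genes, and of 7 above 14, 0 were, against 4.76%. The part of probe brightness in the size of the difference was not tested.

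Of 15 further detected probes for 13 of these genes, which the main values do not use, all 15 were lower in KO at Mat, with a median of -0.45 and a range of -0.80 to -0.22. Over all genes, 58.4% lay below 0 by the probe used. The further probes read the same RNA on the same arrays and are dimmer than the probe used, so their direction is not independent evidence. Probes of a gene did not always have the same size of difference. Ndufs4, an accessory subunit of complex I, had -0.18 for its brightest probe and -0.69, -0.76 and -0.80 for its other probes, and Cox6b1 had -0.17 and -0.51. Ndufs4 is named because of this spread, after its values were seen.

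Sdhd, a membrane anchor of complex II, had a log2 signal of 8.32, 8.47 and 8.99 in CON and 8.21, 8.14 and 7.63 in KO. The difference at Mat was -1.36 (2.57-fold), and the 2 genotypes moved apart along the incisor. This is the gene whose upstream window is printed above with Nrf1 and ETS letters. Sdhaf2, which attaches the flavin cofactor to Sdha, was lower in KO at Mat by 0.71, with 8.85, 8.91 and 9.20 in CON and 8.67, 8.92 and 8.49 in KO. Sdhaf4, which acts when Sdha is joined to Sdhb, was also lower by 0.71, with 10.78, 11.20 and 11.24 in CON and 11.06, 11.03 and 10.53 in KO. Sdhaf1, which serves the iron-sulfur clusters of Sdhb, differed from CON by 0.05, -0.10 and -0.03.

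In complex I, Ndufb2, an accessory subunit of the membrane arm, was 8.27, 9.04 and 8.88 in CON and 8.55, 8.83 and 7.91 in KO, a difference of -0.97 (1.96-fold) at Mat. Ndufb4, of the same arm, was 7.49, 7.43 and 7.38 in CON and 7.64, 7.64 and 6.64 in KO, a difference of -0.73. Ndufa1, whose values are given above, was lower by 0.63. All 3 were above CON in KO at CL. Ndufaf5, an assembly factor that hydroxylates Ndufs7, was 9.21, 9.26 and 9.49 in CON and 9.41, 8.74 and 8.80 in KO, a difference of -0.51 at Sec and -0.69 at Mat. The other complex I assembly factors of the set, Ndufaf1, Ndufaf3, Ndufaf4 and Ndufaf7, differed at Mat by -0.37, -0.48, -0.14 and 0.16.

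In complex IV, Cox7b was 6.83, 7.61 and 7.68 in CON and 6.99, 7.22 and 6.70 in KO, a difference of -0.98 (1.97-fold) at Mat between dim probes. Cox7a2, the isoform found in most tissues, was 8.85, 9.20 and 9.28 in CON and 9.26, 9.21 and 8.67 in KO, so that KO was above CON at CL by 0.42 and below it at Mat by 0.61. Cox4i1, the subunit through which ATP is known to restrain the complex, was 13.87, 13.89 and 14.16 in CON and 13.90, 13.97 and 13.74 in KO. Cox6a1 was 13.25, 13.85 and 14.12 in CON and 13.25, 13.90 and 13.65 in KO, Cox6b1 13.35, 13.80 and 14.09 in CON and 13.40, 13.80 and 13.92 in KO, and Cox8a 13.76, 14.10 and 14.21 in CON and 13.70, 13.83 and 13.76 in KO. For each of them CON at Mat was the highest array. Ndufa4 was nearly alike in both genotypes at Mat, at 14.17 in CON and 14.13 in KO.

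At each stage the largest difference between KO and CON was that of a tissue isoform of complex IV, in differing directions. It was that of Cox7a1 at CL, of Cox8b at Sec and of Cox6b2 at Mat. The other detected tissue isoforms differed less at Mat than Sdhd did (-1.36). Cox7a1, the isoform of heart and skeletal muscle, was 6.85 at CL, 10.67 at Sec and 11.38 at Mat in CON and 7.44, 10.11 and 10.26 in KO. It was thus higher by 4.53 (23.1-fold) at Mat than at CL of CON, and KO was above CON at CL by 0.59 and below it at Sec by 0.57 and at Mat by 1.12. Cox8b, also an isoform of heart and skeletal muscle in rodents, was 7.01, 7.66 and 10.34 in CON and 6.95, 10.25 and 10.97 in KO, so that KO exceeded CON by 2.58 (6.0-fold) at Sec and by 0.63 at Mat. The 2 muscle isoforms differed in the direction of the genotype difference at both later stages.

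Skeletal muscle genes moved in the same arrays. Their median difference was 2.42 at Sec, with 13 of 13 higher in KO, and 0.64 at Mat, with 7 higher and 1 lower. Acta1, the actin of skeletal muscle, was 11.02, 11.47 and 13.62 in CON and 11.09, 13.94 and 14.15 in KO, and Ckm, the muscle creatine kinase, 7.10, 7.81 and 10.73 in CON and 7.20, 10.23 and 11.29 in KO. Cox8b had the same order as Ckm over the Sec and Mat arrays. Cox7a1 had a different order, since it was 3.82 higher at Sec than at CL of CON and was lower in KO at Sec and Mat, where Ckm was higher. Cox6a2, the muscle isoform left out of the set, is itself 1 of the 13 muscle genes and is the 1 counted as lower at Mat. It was 8.19, 10.01 and 12.28 in CON and 8.04, 10.82 and 11.36 in KO, higher in KO at Sec by 0.82 and lower at Mat by 0.92. The share of muscle in the signals of these isoforms was not tested.

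Cox4i2, an isoform known from lung, had a log2 signal of 9.70, 9.95 and 9.04 in CON and of 9.25, 8.43 and 8.11 in KO. KO was lower at every stage, by 0.44 at CL, by 1.51 (2.86-fold) at Sec and by 0.93 at Mat. Endothelial genes were lower in KO at Sec and Mat as well, with medians over 3 genes of 0.02, -0.46 and -0.67 along the incisor, and the part of vessels in the signal of Cox4i2 was not tested. Cox6b2, an isoform known from testis, was 9.31, 10.36 and 11.17 in CON and 9.02, 10.23 and 9.54 in KO, a difference of -1.63 (3.1-fold) at Mat, where CON was the highest of the 6 arrays. Its other probe was detected on no array, and with the mean of both probes the difference was -0.91.

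**Figure D4:**
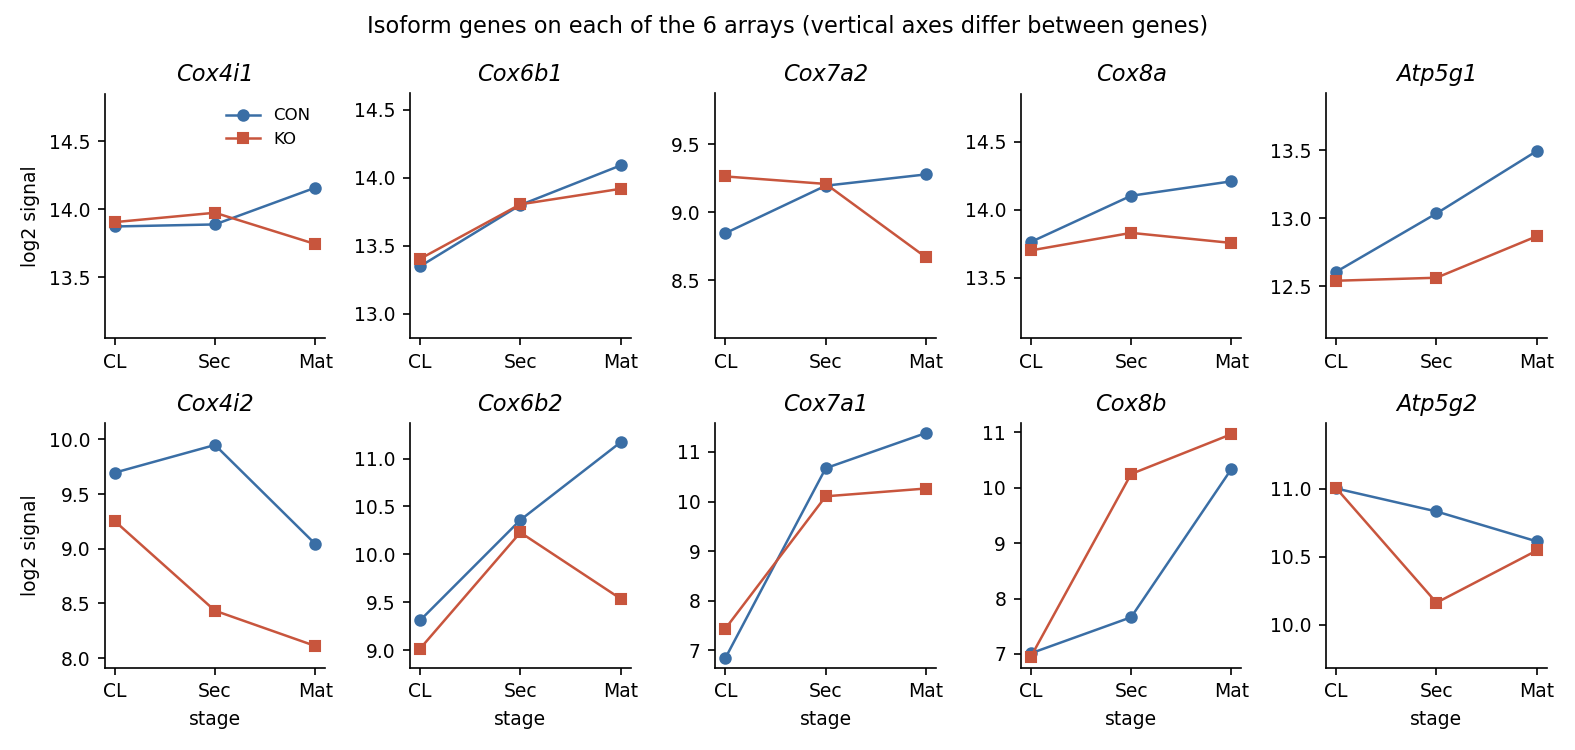
Log2 signal of isoform genes at CL, Sec and Mat in CON (circles) and KO (squares), with 1 array per point, the widely expressed isoforms and Atp5g1 above and the tissue isoforms and Atp5g2 below. The vertical axes differ between genes. Cox8b is higher in KO at Sec and Mat, while Cox4i2, Cox6b2 and Cox7a1 are lower in KO at Mat.

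The c subunits of ATP synthase form the ring that turns with the passage of protons, and 3 genes encode the same mature protein with different import sequences. Atp5g1 was 12.61, 13.04 and 13.50 in CON and 12.54, 12.56 and 12.87 in KO, lower in KO by 0.47 at Sec and by 0.63 at Mat. The study lists Atp5g1 among genes it chose on these arrays at Mat, so its direction there is not independent evidence. Atp5g2 was 11.00, 10.83 and 10.61 in CON and 11.00, 10.16 and 10.55 in KO, lower in KO by 0.67 at Sec and by 0.07 at Mat. Atp5g3 was 14.36, 14.56 and 14.92 in CON and 14.31, 14.65 and 14.59 in KO, lower by 0.33 at Mat and higher by 0.09 at Sec. In CON, Atp5g1 and Atp5g3 were higher at Mat than at CL and Atp5g2 was lower, while in KO Atp5g1 and Atp5g3 were also higher and Atp5g2 lower.

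The genotype and the stage were tested over all 6 arrays in limma, with both as terms, on 8697 genes of which 83 were members. This test has 2 residual degrees of freedom before moderation and asks whether a difference is alike across stages, not across animals. By limma with Benjamini-Hochberg adjustment, 0 members (0.0% of genes higher and 0.0% lower) were called for genotype, and 1 had an unadjusted p under 0.05, Cox4i2, with a log2 difference of -0.96 ± 0.25 (SE, lower in KO at 3 of 3 stages, unadjusted p = 0.0123, adjusted p = 0.496). The unadjusted share was 3.89% of genes for higher and 5.97% for lower. For Mat against CL, 0 members were called (0.0115% of genes higher and 0.0% lower), while 12 were higher (12.0% of genes) and 1 lower (19.5%) at an unadjusted p under 0.05. Cox7a1 was higher by 3.67 ± 0.44 (SE, in 2 of 2 genotypes, adjusted p = 0.0641 in limma), Cox8b by 3.67 ± 0.65 (adjusted p = 0.0666) and Cyc1 by 0.71 ± 0.20 (adjusted p = 0.0983). For Sec against CL, 0 members were called by limma (0.0115% higher and 0.0% lower) and 5 were higher (5.54% of genes) and 0 lower (6.09%) unadjusted, and for Mat against Sec, 0 were called (0.0% in each direction) and 1 was higher (2.93%) and 0 lower (4.23%) unadjusted.

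The adjusted p of Cox7a1 for Mat against CL passed the threshold in 2 alternatives, at 0.0479 when only genes detected on all 6 arrays were tested and at 0.0469 with arrays scaled to a common median, where Cox8b also passed at 0.0497. These settings also raised the calls over all genes, to 0.843% higher and 0.421% lower in the former and to 1.77% higher and 1.82% lower in the latter, so the calls do not set these genes apart. The genotype term had a median over the members of -0.06, against -0.09 over all genes. Without the Mat arrays its median over the members was 0.02, against -0.06 over all genes. Without the Sec arrays it was -0.10 against -0.07, and without the CL arrays -0.16 against -0.13.

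Other mitochondrial genes were compared by the same counts at Mat, where 18.4% of all genes were lower and 12.6% higher. Genes of the tricarboxylic acid (TCA) cycle and pyruvate dehydrogenase, which supply NADH and succinate to complexes I and II, had a median difference between KO and CON of -0.39, with 7 of 15 lower and 0 higher. Carriers and porins, which move adenine nucleotides, phosphate and other solutes, had -0.44, with 2 of 7 lower. Proteins of the mitochondrial ribosome, which translates the subunits of mitochondrial DNA, had -0.08, with 2 lower and 1 higher of 69. Genes of mitochondrial import had a median of -0.03 over 17, and assembly factors outside the set, most of them for complex IV, -0.19 over 23. Proteins of the cytosolic ribosome stood on the other side, with a median of 0.31 and 12 higher and 1 lower of 62, and with arrays scaled to a common median, where all genes had a median of -0.21, the medians were -0.63 for the TCA cycle, -0.60 for carriers, -0.22 for the mitochondrial and 0.15 for the cytosolic ribosome. The mitochondrial ribosome thus lay at the median of all genes under that scaling.

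Between CL and Mat of CON the TCA cycle had a median of 0.50, with 6 of 15 higher and 1 lower, carriers and porins 0.31, the mitochondrial ribosome 0.07, with 3 higher and 1 lower of 69, and the cytosolic ribosome -0.42, with 1 higher and 23 lower of 62. This comparison and that of KO with CON at Mat share the CON Mat array, so opposite signs in them are not independent of each other.

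**Figure D5:**
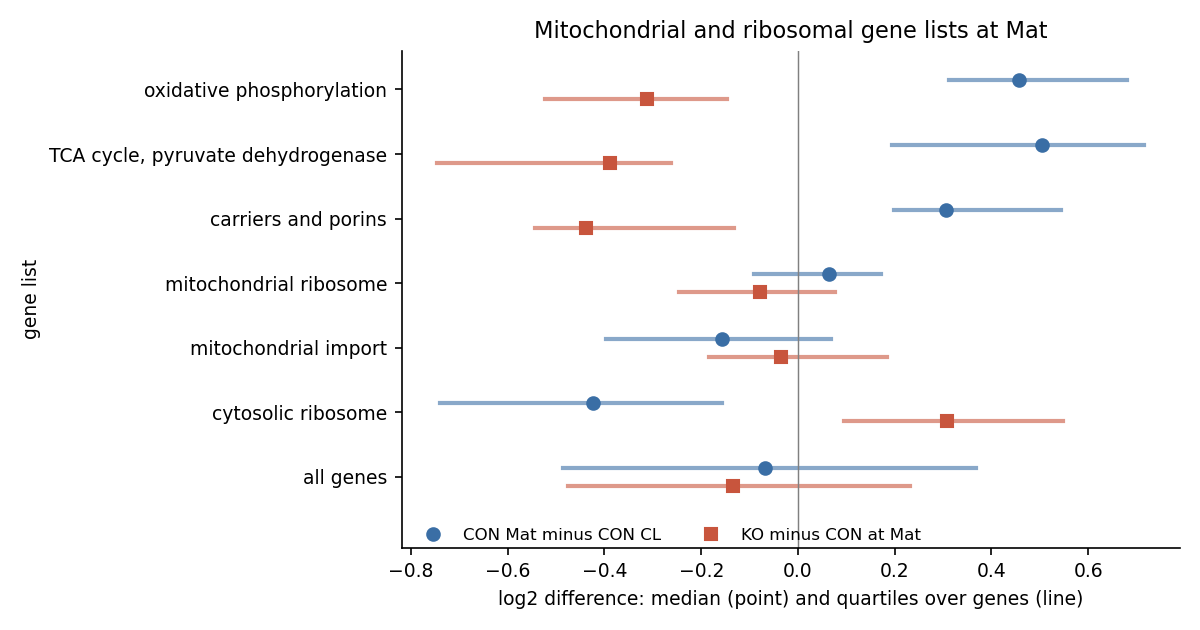
Median (points) and quartiles over genes (lines) of the log2 difference between CON at Mat and CON at CL (circles) and between KO and CON at Mat (squares) for oxidative phosphorylation genes, other mitochondrial lists, the cytosolic ribosome and all detected genes. Both comparisons use the CON Mat array. The medians of oxidative phosphorylation genes are 0.46 and -0.31, and those of the cytosolic ribosome -0.42 and 0.31.

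Regulators of these genes were read from the same arrays. Ppargc1a, a coactivator of mitochondrial biogenesis, was 6.73, 7.67 and 9.39 in CON and 6.93, 8.32 and 7.42 in KO, which was above CON by 0.66 at Sec and below it by 1.97 at Mat. Ppargc1b, its close relative, was 7.82, 8.23 and 8.64 in CON and 7.42, 8.35 and 7.60 in KO, lower by 1.03 at Mat. Esrra, the estrogen-related receptor with which both work, was 9.33, 10.14 and 10.80 in CON and 9.33, 10.33 and 10.38 in KO. Each of the 3 had its highest signal in CON at Mat. Nrf1 had its highest signal in CON at CL, at 10.18, and differed from CON in KO by -0.21, -0.11 and -0.02. Across the whole list of 11 regulators detected at Mat, 2 were lower (18.2%, against 18.4% of all genes). Pparg, a receptor of fat cells named after its values were seen, was the 1 higher (9.09%, against 12.6%), by 1.12. These counts do not set the list apart from all genes.

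The markers of other cells moved with the difference at Mat in several directions. The osteoclast genes Acp5, Ctsk and Mmp9 were lower in KO by 1.28, 1.16 and 1.34 at Mat and by 0.72, 0.81 and 0.86 at Sec, and osteoclasts are rich in mitochondria. In CON they were higher at Mat than at CL, with a median of 0.82. The brown fat gene Ucp1 was detected on no array, while Cidea and Adipoq, fat genes of the same list, were higher in KO by at least 2.88 and 1.33 at Sec and by 3.79 and at least 1.77 at Mat. Klk4, the protease of maturation ameloblasts, was 14.38 in CON and 13.45 in KO at Mat, and the 5 ameloblast markers had a median difference of -0.36 there, with 2 lower. The part of each cell type in the lower signal of oxidative phosphorylation genes was not tested.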

How the data were processed

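Non-normalized probe intensities and detection p-values were deposited by the authors for 25697 probes on 6 Illumina mouse arrays, exported from GenomeStudio per the submitters' processing notes, whose version is not given in the sources used here. A table of normalized intensities was also deposited, in which the array medians were 182.7 to 182.9, and served as an alternative. It was normalized in Genome Studio per the methods, with an option not given in the sources used here.

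The non-normalized intensities were background-corrected with the detection p-values, quantile-normalized and put on the log2 scale with an offset of 16 (neqc, limma 3.58.1, R 4.3.3), and the detection p-values were used as deposited by the authors. Of the probes, 1719 had no gene symbol and were left out. A gene was read from its brightest probe. A difference was counted when it reached 1.5-fold and the brighter array had a detection p-value under 0.01, and an array without detection was set to the higher of its own value and the lowest detected signal, which gives a bound. With 1 array for each genotype and stage no test was made at a stage. limma was fitted over all 6 arrays, on genes detected on at least 3, with genotype and stage as terms and Benjamini-Hochberg adjustment over all genes. The counting was checked on a small made table with known answers, and limma on simulated arrays. In these the planted differences were larger than those of most members, and the noise was capped at the median of the genes. The simulation therefore does not show how many differences of the size seen here the fit would miss.

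The members and gene lists were chosen with earlier results of these data known. Named were members counted at any stage in KO against CON, the 5 largest differences each way between CL and Mat of CON, core subunits, isoform families, assembly factors, undetected members and Atp5g1, and up to 4 genes of a marker or regulator list, with exceptions stated where they occur. Brightness on 1 array per group carries no replicate error, and the number of arrays limits the precision.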

Additional observations from a re-analysis of the deposited data

Results flagged for a closer look

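Cox7a1, the muscle isoform of a complex IV subunit, differed between KO and CON in opposite directions at different stages, by 0.59 at CL and by -1.12 at Mat on the log2 scale, with 1 array for each value. The change of direction between stages was not tested. At CL the signal was near the dim end of the array, at 6.85 in CON and 7.44 in KO, and in the deposited normalized values the difference at CL was 0.31.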

How the results depend on the processing

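With arrays scaled to a common median, the median difference of KO from CON at Mat was -0.46, with 28 lower and 0 higher. The median was 0.007 for KO Sec against KO CL, with 3 higher, and -0.064 for KO Mat against KO CL, with 12 lower. At CL, 2 were higher in KO, and limma called 2 members for Mat against CL, with 154 higher and 158 lower over all genes. In the deposited normalized values, 9 were lower and 0 higher in KO at Mat and 0 higher at CL, 4 were higher for CON Sec against CON CL, 0 lower for CON Mat against CON CL, 1 lower for KO Mat against KO CL and 3 lower for KO Mat against KO Sec. At a fold of at least 2, KO against CON left 0 higher at CL, 1 lower at Sec, and 3 lower and 0 higher at Mat. CON left 2 higher for Sec against CL, 1 higher and 0 lower for Mat against Sec, and 3 higher and 0 lower for Mat against CL. KO left 3 higher and 0 lower for Sec against CL, 0 higher and 0 lower for Mat against Sec, and 1 lower for Mat against CL. The shares of all genes at a fold of at least 2 are not given here, so these counts do not set the members apart. Relative to the median of all genes, an alternative chosen after seeing the data, the medians were -0.18 for KO against CON at Mat, with 8 lower, and 0.10 at Sec, with 3 higher and 1 lower. They were 0.27 for KO Sec against KO CL, with 9 higher, and 0.29 for KO Mat against KO CL, with 11 higher and 2 lower, while CON had 12 higher for Sec against CL and 0 lower for Mat against CL. limma on genes detected on all 6 arrays called 1 member for Mat against CL, with 64 higher and 32 lower of 7592 genes. The cause of these differences was not tested, beyond the higher fold and the shifted zero that 2 of the alternatives set by construction. Of the summary values, 133 stayed close to the main value and 43 did not, and for single genes 79 kept their side of 1.5-fold and 16 did not. Leaving out the arrays of a stage in turn gave 0 members called for genotype in limma each time. Over all genes, 93 of 8697 were called higher and 0 lower without the CL arrays. Without the Sec or the Mat arrays 0 genes were called in either direction. With so few genes called, the count of 0 does not set the members apart. No paired analysis was possible because each group holds 1 array and the labels give no pairs of animals, while the stage term of limma sets KO against CON within each stage, and a block for the chip was not run because the files name no chips. Signal over background limits the dim probes.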
